A study of Mus musculus with 10 samples.

Results

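The genes described here are 10 genes by which cells register glucose and energy supply: Mlxip, Mlxipl, Txnip, Arrdc4, Prkaa1, Prkaa2, Ddit4, Sesn1, Sesn2 and Sesn3. They were chosen by name for their function, with earlier results of these data known. All 10 were found among the 33585 genes of the table. Of these, 8 had a mean of at least 1 FPKM (fragments mapped to a gene, scaled by its transcript length and by all mapped reads of the library) and were tested. The values come from bulk RNA-seq of tumor-draining lymph nodes (TDLNs) of female BALB/c mice, 6 weeks old at the start, which carried tumors of the mouse mammary carcinoma line 4T1 in a mammary fat pad. All tumors were destroyed by microwave ablation (MWA) on day 10. The MWA group (5 libraries) then received the vehicle PBS, the MWA+2DG group (5 libraries) received 2-deoxy-D-glucose (2DG) at 500 mg/kg into the peritoneum every 2 days, and nodes were taken on day 15. Both groups were ablated, so neither shows an untreated node. The labels number the libraries 1 to 5 in each group without naming the animals, and a p-value here measures the spread between these libraries only.

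2DG is a glucose analogue that enters cells through glucose transporters and is phosphorylated by hexokinase, but cannot go on through glycolysis. Phosphorylated sugars release the transcription factors MondoA (gene Mlxip) and ChREBP (gene Mlxipl), which pair with MLX on carbohydrate response elements, and Txnip and Arrdc4 are the best known target genes of that pair. Their products are alpha-arrestins: TXNIP binds thioredoxin and helps to take glucose transporters off the cell surface. A fall in ATP is registered by AMP-activated protein kinase (AMPK), whose catalytic subunits are encoded by Prkaa1 and Prkaa2. The kinase mTORC1 drives growth and glycolysis in activated lymphocytes, and it is held back by REDD1 (gene Ddit4), which acts through the TSC complex, and by the sestrins, which act through GATOR2. The comparison asks whether these genes differ in the node after 2DG was given. Glycolysis in these nodes was not measured, and the time from the last injection to collection is not stated.

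The promoter of Txnip differs from those of the other genes in the exact motif matches it holds. For all 10 genes RefSeq (build GRCm38.p6) gives at least 1 promoter window, from 250 bases before to 50 after a transcription start, with 12 windows in all. A pair of CACGNG letters with 5 bases between them was taken as 1 strict form of a carbohydrate response element. Looser forms with mismatches were not searched for, so a window without the pair may still hold an element. Among 32851 windows of that length in the same table, the pair was found on either strand in 0.0487%. The Txnip window is the 1 among the 12 that holds it. The same Txnip window holds GTAAACA, a FOXO motif found in 3.65% of windows, and GNACA followed after 3 bases by TGTNC, a glucocorticoid receptor motif found in 0.475%. The Arrdc4 window holds no such pair but has CACGTG, the E-box, at positions -193 to -188 from its start (7.15% of windows), which is itself 1 form of CACGNG. These 2 windows are printed because they belong to the known target genes of MondoA. Capitals mark, in Txnip from left to right, the glucocorticoid receptor motif, the FOXO motif and the paired motif, and in Arrdc4 the E-box.
Txnip, chr3:96557707-96558006, plus strand: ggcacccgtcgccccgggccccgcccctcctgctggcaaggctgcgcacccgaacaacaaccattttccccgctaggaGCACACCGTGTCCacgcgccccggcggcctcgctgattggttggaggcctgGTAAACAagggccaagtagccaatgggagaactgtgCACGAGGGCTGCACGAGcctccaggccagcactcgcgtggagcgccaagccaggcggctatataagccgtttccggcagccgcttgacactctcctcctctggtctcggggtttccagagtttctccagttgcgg
Arrdc4, chr7:68749189-68749488, minus strand: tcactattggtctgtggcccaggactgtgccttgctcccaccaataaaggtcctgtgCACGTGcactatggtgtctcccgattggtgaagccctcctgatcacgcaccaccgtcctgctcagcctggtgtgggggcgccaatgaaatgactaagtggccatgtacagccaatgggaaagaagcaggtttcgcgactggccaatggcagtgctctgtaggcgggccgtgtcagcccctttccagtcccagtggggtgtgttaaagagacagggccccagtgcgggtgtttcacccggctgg
Outside these windows the FOXO motif was found in 1 Sesn1 window (23 to 29 bases after its start) and the E-box in 1 Mlxipl window. TGATGNAA, a motif of the stress factor ATF4, is in 3.97% of all windows and in 0 of the 12. CCAAT, in 37.4% of all windows, was found in windows of 8 of the 10 genes and in neither that of Prkaa1 nor that of Prkaa2. A motif match describes letters only and shows no binding.

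The libraries were those of lymph node: summed over 7 B cell markers they held 1392 to 1688 FPKM, and over 8 T cell markers 372 to 588 FPKM. Replicates 1 and 2 of both groups stood apart from replicates 3 to 5 of both groups on the first principal component (36.4% of the variance), and 8 liver markers summed to between 22 and 31 FPKM in the first set and between 80.4 and 185 FPKM in the second. MWA replicate 5 stood apart in transcript length. Its index, the mean centred log2 value of the genes with the longest transcripts minus that of the genes with the shortest, was -0.456, against -0.0468 to 0.195 in the other 9 libraries. Summed FPKM per library lay between 312143 and 359984. FPKM holds no read counts, so depth is unknown. In bulk tissue fewer cells of a type and less RNA per cell cannot be told apart.

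FPKM is divided by transcript length, so levels can be compared between genes, but only roughly. The annotation behind the lengths is not given, and the transcript length shift of MWA replicate 5 remains in its values. Small differences in level or share are therefore uncertain. Txnip was the most abundant of the 10, at 155 ± 30.1 FPKM (SD, n = 10 libraries), and ranked 281 among all 33585 genes. Ddit4 followed at 66.0 ± 29.6 FPKM, below Txnip in all 10 libraries. Sesn1 (27.8 ± 6.63 FPKM) and Mlxip (24.7 ± 5.05 FPKM) did not differ beyond their spread, with Sesn1 above Mlxip in 4 of 10 libraries. Sesn3 (11.4 ± 2.13 FPKM) lay above Prkaa1 (9.88 ± 0.806 FPKM) in 8 of 10 libraries, and Prkaa1 lay above Arrdc4 (8.56 ± 0.850 FPKM) in all 10. Sesn2 was at 5.35 ± 0.846 FPKM. Mlxipl (0.166 ± 0.116 FPKM) and Prkaa2 (0.0415 ± 0.0190 FPKM) were close to 0 throughout.

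Related genes took unequal shares of the message in these nodes. Of the FPKM of the AMPK catalytic subunits, Prkaa1 held 99.3% to 99.9% in each library. Of the sestrins, Sesn1 held 53% to 74.8%, Sesn3 15.9% to 35% and Sesn2 8.97% to 16.4%.

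**Figure D1:**
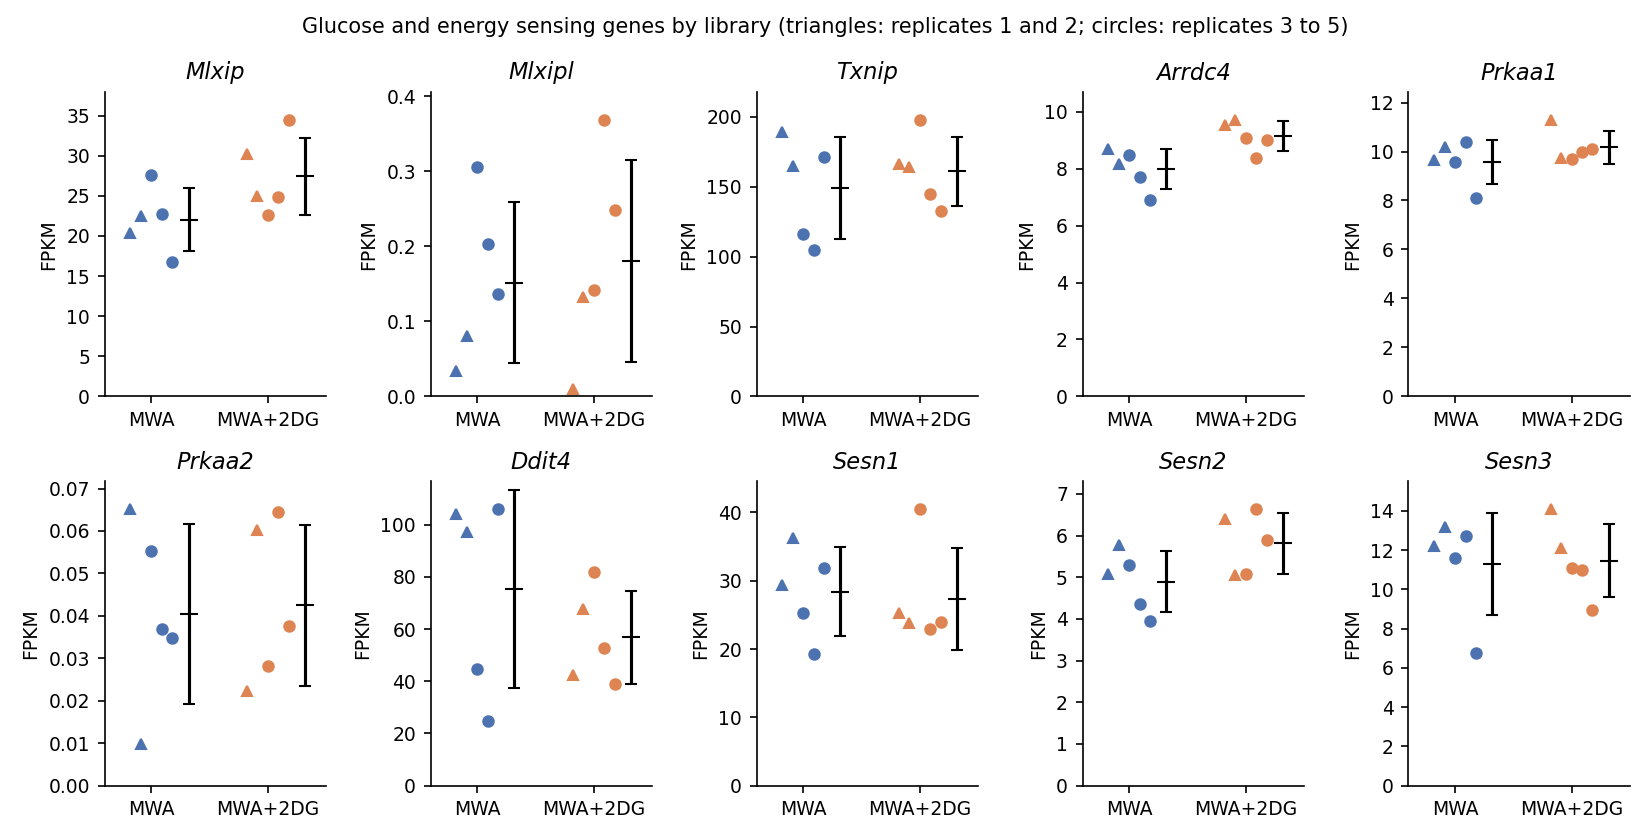
FPKM (linear axis from 0) of the 10 genes in each of the 5 MWA (blue) and 5 MWA+2DG (orange) libraries, with triangles for replicates 1 and 2, circles for replicates 3 to 5, and the mean ± SD of each group in black. The groups overlap in every panel, most narrowly for Arrdc4, where 4 of 5 MWA+2DG libraries lie above every MWA library.

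By the rule of the study, an unadjusted limma P below 0.05 and a log2 fold change beyond 0.25 either way, none of the 8 tested genes was called, against 2.82% of all 13334 genes tested (0.952% higher and 1.87% lower in MWA+2DG). On the P alone 1 of the 8 passed, Arrdc4, against 4.25% of all genes (1.63% higher and 2.62% lower). Fold changes are on log2(FPKM + 1), MWA+2DG minus MWA, and understate changes of low genes. With Benjamini-Hochberg adjustment the smallest adjusted p of any gene in the table was 0.995, and 0 genes passed by limma (567 at an unadjusted P below 0.05). The Wilcoxon test gave an unadjusted P below 0.05 for 3.12% of all genes and for 1 of the 8, and for none of the 8 were the groups apart without overlap, against 0.802% of all genes. The log2 fold change was above 0 in 6 of the 8 and below 0 in 2 (above 0 in 7011 of all 13334 genes), with a median of 0.11 (0.01 over all genes tested).

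**Figure D2:**
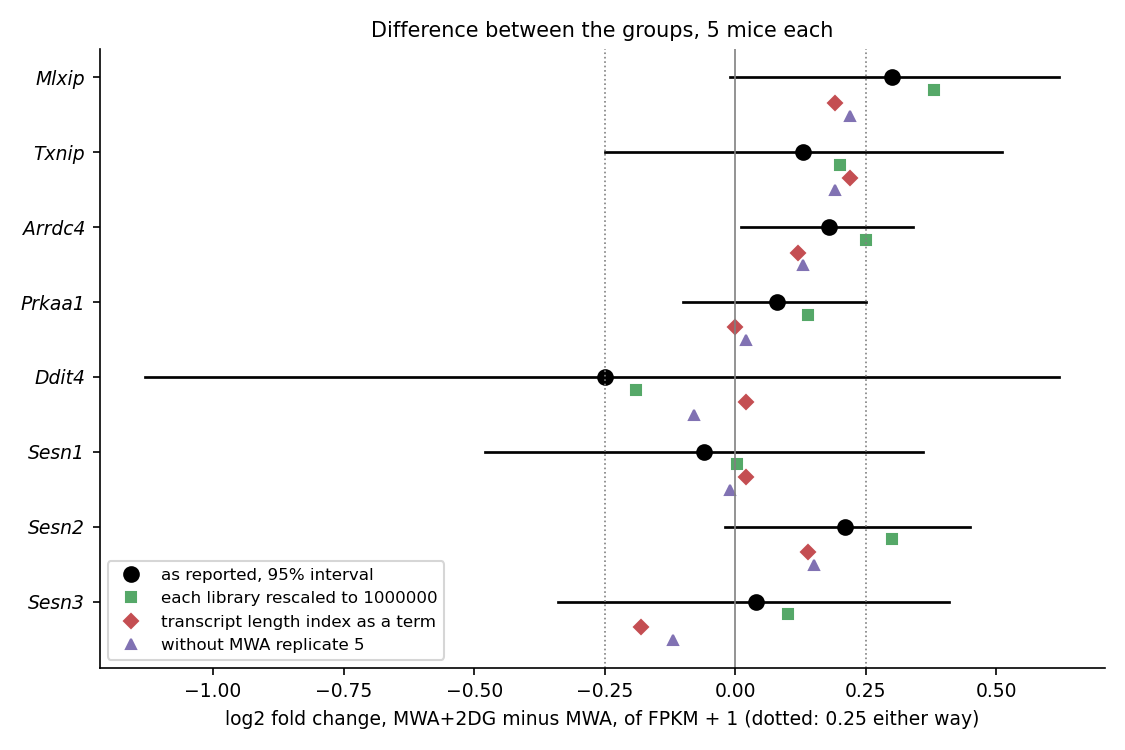
Log2 fold change (horizontal axis, MWA+2DG minus MWA) of the 8 tested genes, with black points and lines for the limma estimate and its 95% interval, and coloured points for 3 other settings. The interval of Arrdc4 alone lies to the right of 0 (0.01 to 0.34), that of Ddit4 is the widest (-1.13 to 0.62), and Sesn3 moves from 0.04 to -0.18 with the transcript length index as a term.

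Of the glucose sensing factors, Mlxip was measured in every library and Mlxipl barely. Mlxip was at 20.4, 22.5, 27.6, 22.8 and 16.8 FPKM in MWA replicates 1 to 5 and at 30.2, 25, 22.6, 24.8 and 34.5 FPKM in MWA+2DG replicates 1 to 5. All 5 MWA+2DG libraries lay above the MWA mean of 22.0 FPKM and 2 lay above every MWA library, so the groups overlapped. The log2 fold change was 0.30 (SE 0.14, 95% interval -0.01 to 0.62, limma P = 0.0567, exact permutation p = 0.0952), and it was 0.35 in replicates 1 and 2 and 0.28 in replicates 3 to 5. Without MWA replicate 3 the gene was called (0.39, limma P = 0.0190, exact permutation p = 0.0317), as it was without MWA+2DG replicate 3. The limma P was not below 0.05 in the other 8 of 10 fits that left out 1 library. Mlxip had a log2 fold change of 0.22 without MWA replicate 5 and also without MWA+2DG replicate 5, the library where it was highest. It was 0.19 with the transcript length index as a term, a setting added after the data were seen, and the gene was not called.

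Mlxipl, the form of liver and fat, lay between 0.0333 and 0.306 FPKM in MWA and between 0.0101 and 0.369 FPKM in MWA+2DG (exact permutation p = 0.738 on the log2 scale), under the limit for a limma test. Its values ran from 0.0101 to 0.133 FPKM in replicates 1 and 2 and from 0.136 to 0.369 FPKM in replicates 3 to 5, the same division as that of the liver markers. The part of liver RNA in this level was not tested.

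Txnip was abundant in every library but did not separate the groups. It was at 189, 165, 116, 105 and 171 FPKM in MWA and at 166, 164, 198, 145 and 133 FPKM in MWA+2DG, in order of replicate number. The lowest pair were MWA replicates 3 and 4, and the single highest library was MWA+2DG replicate 3. Between the groups the log2 fold change was 0.13 (SE 0.17, 95% interval -0.25 to 0.51, limma P = 0.461, exact permutation p = 0.500), which on the scale of FPKM + 1 spans a ratio of 0.841 to 1.43. It was -0.10 in replicates 1 and 2 and 0.29 in replicates 3 to 5. Single libraries moved it as well, with 0.02 when MWA replicate 4 was left out, 0.05 for MWA replicate 3 and for MWA+2DG replicate 3, 0.20 for MWA+2DG replicate 5 and 0.23 for MWA replicate 1.

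Arrdc4, the second arrestin under MondoA, stood nearest to a difference. It was at 8.68, 8.16, 8.49, 7.71 and 6.89 FPKM in MWA and at 9.54, 9.72, 9.06, 8.39 and 9.02 FPKM in MWA+2DG. The MWA+2DG libraries lay above every MWA library except for replicate 4, and its spread within groups was among the lowest 10.7% of the genes tested. Its log2 fold change was 0.18 (SE 0.07, 95% interval 0.01 to 0.34, limma P = 0.0373, exact permutation p = 0.0238), under the 0.25 that the study asks, and the adjusted p over all genes was 0.995. The size was alike in both replicate sets, at 0.175 in replicates 1 and 2 and 0.179 in replicates 3 to 5. MWA replicate 5, the library with the low transcript length index, had the lowest value. Without it the log2 fold change was 0.13 (limma P = 0.0682, exact permutation p = 0.0476). The limma P was not below 0.05 in 6 of the 10 fits that left out 1 library, those without MWA replicate 2, 4 or 5 or without MWA+2DG replicate 1, 2 or 3. With the index as a term, a setting added after the data were seen, it was 0.12 and did not pass a limma P of 0.05.

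The catalytic subunit of AMPK differed little between libraries. Prkaa1 was at 9.64, 10.2, 9.58, 10.4 and 8.11 FPKM in MWA and at 11.3, 9.73, 9.69, 10 and 10.1 FPKM in MWA+2DG. The groups overlapped, with 1 library at each end apart from the rest: MWA replicate 5 at the bottom and MWA+2DG replicate 1 at the top. Limma gave a log2 fold change of 0.08 (SE 0.08, 95% interval -0.10 to 0.25, limma P = 0.344, exact permutation p = 0.365), an interval that on the FPKM + 1 scale spans a ratio of 0.936 to 1.19. Without MWA replicate 5 the log2 fold change was 0.02. Prkaa2, the form of muscle and liver, lay between 0.00988 and 0.0652 FPKM in MWA and between 0.0222 and 0.0644 FPKM in MWA+2DG, and was not tested by limma (exact permutation p = 0.873).

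Ddit4, which is induced by glucocorticoids, hypoxia and energy stress, varied most between libraries of the same group. It was at 104, 97.2, 44.7, 24.7 and 106 FPKM in MWA and at 42.5, 67.7, 82.0, 52.7 and 39.1 FPKM in MWA+2DG. The MWA libraries held both the highest and the lowest values, 4.28-fold apart, and all MWA+2DG libraries lay between them. Its spread within groups was larger than that of 96.8% of the genes tested. The log2 fold change was -0.25 (SE 0.40, 95% interval -1.13 to 0.62, limma P = 0.534, exact permutation p = 0.603). It was -0.90 in replicates 1 and 2 and 0.17 in replicates 3 to 5, and leaving out MWA replicate 4 gave -0.60 (limma P = 0.0708, exact permutation p = 0.111). Without MWA replicate 1, 2 or 5 it was -0.09, -0.11 or -0.08, without MWA replicate 3 or MWA+2DG replicate 3 -0.39 or -0.40, and without MWA+2DG replicate 1 or 5 -0.17 or -0.14.

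Among the sestrins, Sesn1, a target of p53 and FOXO factors, was at 29.4, 36.3, 25.2, 19.2 and 31.8 FPKM in MWA and at 25.2, 23.8, 40.5, 22.9 and 24.0 FPKM in MWA+2DG. MWA+2DG replicate 3 was the highest library and the other MWA+2DG libraries lay within 22.9 to 25.2 FPKM. Limma gave a log2 fold change of -0.06 (SE 0.19, 95% interval -0.48 to 0.36, limma P = 0.762, exact permutation p = 0.778), and without MWA+2DG replicate 3 it was -0.21. In replicates 1 and 2 it was -0.40 and in replicates 3 to 5 0.17, and without MWA replicate 2 it was 0.03.

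Sesn2, a leucine-binding sestrin and a target of ATF4, was at 5.09, 5.77, 5.30, 4.35 and 3.95 FPKM in MWA and at 6.40, 5.06, 5.09, 6.64 and 5.90 FPKM in MWA+2DG. The MWA+2DG replicates 1, 4 and 5 lay above every MWA library and the other two among them. The log2 fold change was 0.21 (SE 0.11, 95% interval -0.02 to 0.45, limma P = 0.0705, exact permutation p = 0.103). It was called without MWA replicate 2 (0.27, limma P = 0.0339, exact permutation p = 0.0952) and without MWA+2DG replicate 2. The limma P was not below 0.05 in the other 8 of 10 fits that left out 1 library, and the value was 0.15 without MWA replicate 5. The log2 fold change of Sesn2 was 0.06 in replicates 1 and 2 and 0.31 in replicates 3 to 5.

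Sesn3, a FOXO target, was at 12.2, 13.2, 11.6, 12.7 and 6.76 FPKM in MWA and at 14.1, 12.1, 11.1, 11 and 8.97 FPKM in MWA+2DG. Replicate 5 was the lowest of either group, and MWA replicate 5 was far under the other MWA libraries. For this gene the log2 fold change was 0.04 (SE 0.17, 95% interval -0.34 to 0.41, limma P = 0.839, exact permutation p = 0.857). Without MWA replicate 5 its value turned to -0.12 (exact permutation p = 0.365), and with the transcript length index as a term it was -0.18 and passed a limma P of 0.05 but not the threshold of 0.25.

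The lowest value of every tested member was found in 1 of 2 MWA libraries, and these libraries divided the genes into groups. MWA replicate 5 was lowest for 5 of the 8, Mlxip, Arrdc4, Prkaa1, Sesn2 and Sesn3. MWA replicate 4 was lowest for the other 3, Txnip, Ddit4 and Sesn1. The longest annotated transcripts of the first 5 genes have 3475 to 9125 bases, and those of the other 3 have 1755 to 3809 bases. The part of the transcript length shift of MWA replicate 5 in these levels was tested only by leaving the library out and by the index as a term.

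**Figure D3:**
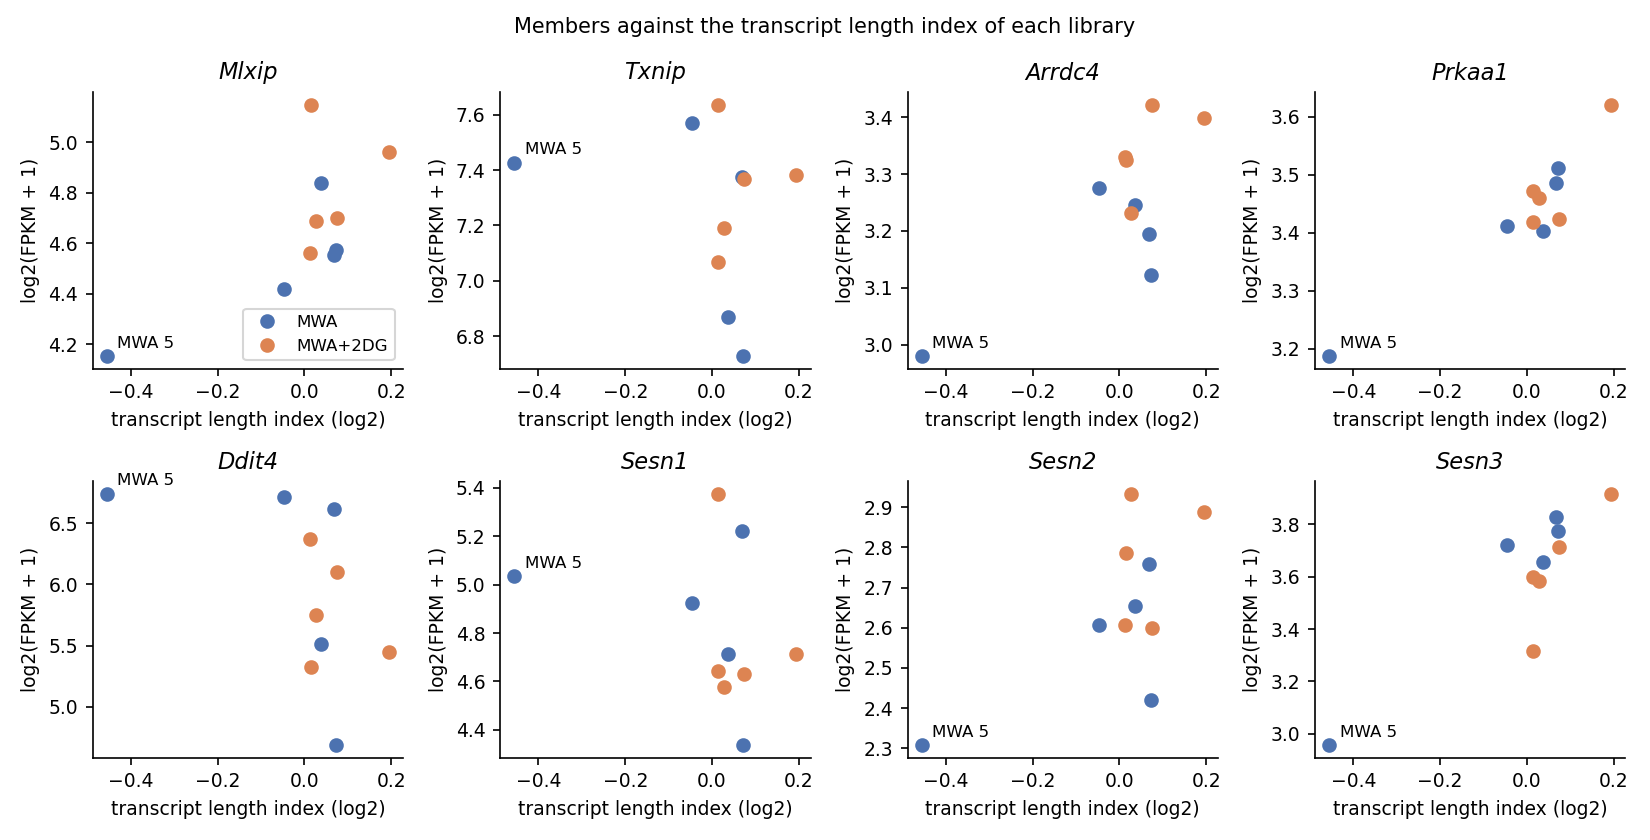
Log2(FPKM + 1) of the 8 tested genes (vertical axes, which do not start at 0) against the transcript length index of each library, with MWA in blue and MWA+2DG in orange. MWA replicate 5, at an index of -0.456, is lowest for Mlxip, Arrdc4, Prkaa1, Sesn2 and Sesn3 and highest for Ddit4.

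Txnip, Ddit4 and Sesn1 were high and low in the same libraries. Over the 10 libraries on the log2 scale, Txnip and Ddit4 gave Pearson's r = 0.84 (permutation p = 0.00243) and Spearman's rho = 0.76 (permutation p = 0.0150), and r = 0.71 without the 2 libraries farthest from the median of Txnip. Ddit4 and Sesn1 gave r = 0.81 (permutation p = 0.00492) and rho = 0.71 (permutation p = 0.0267), with r = 0.71 without the 2 libraries farthest on Ddit4. Txnip and Sesn1 gave r = 0.76 (permutation p = 0.0108) and rho = 0.75 (permutation p = 0.0183), with r = 0.72 without the 2 farthest on Txnip. Of 28 pairs among the 8 genes, 0 had a Benjamini-Hochberg adjusted p below 0.05 and 9 an unadjusted one, and the adjusted p of these 3 pairs was 0.0680, 0.0689 and 0.0757. Within the 6 libraries of replicates 3 to 5 the r of Txnip with Ddit4 was 0.90 and with Sesn1 0.91, and that of Ddit4 with Sesn1 was 0.86. Replicates 1 and 2 hold too few libraries for a value. Prkaa1 and Sesn3 also gave r = 0.82 (permutation p = 0.00751, adjusted p = 0.0701) and rho = 0.62 (permutation p = 0.0604), but r was 0.48 without MWA replicate 5 and 0.12 without the 2 farthest libraries. The remaining pairs with an unadjusted p below 0.05 were Mlxip with Arrdc4 (r = 0.68), Prkaa1 (0.67), Sesn2 (0.69) and Ddit4, and Prkaa1 with Sesn2 (0.68). Mlxip and Ddit4 ran in opposite directions, with r = -0.64 (permutation p = 0.0445) and rho = -0.81 (permutation p = 0.0076, adjusted p = 0.171). Mlxip and Txnip gave r = -0.39 (permutation p = 0.269).

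The genes most like these members were found by r over the 10 libraries after the group means were subtracted. For Txnip they were Tmem223 (r = 0.98), Cdc42se1 (r = 0.98) and Mpc1, a subunit of the mitochondrial pyruvate carrier (r = 0.97). For Ddit4 they were Bbc3, the p53 target PUMA, Gm9174 and the ribosomal protein gene Rps29 (r = 0.98 each). For Sesn1 they were Cebpd (r = 0.92), Taf8 and Zfp954 (r = 0.90 each), and for Sesn3 Zfp217, Lrrfip1 and Vezf1 (r = 0.99 each). Such values are the top of 13334 genes and the points share their libraries, so they describe these libraries only.

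Tsc22d3, the glucocorticoid-induced gene GILZ, which was named after its values were seen, was at 69.6, 58.1, 27.3, 15.6 and 56.6 FPKM in MWA and at 32.5, 35.9, 57.8, 28.1 and 34.9 FPKM in MWA+2DG. It was high and low in the libraries where Ddit4 was, with r = 0.94 to Ddit4 and 0.94 to Txnip after the group means were subtracted. By that r it ranked only 30 for Ddit4 and 42 for Txnip. Other genes of the glucocorticoid list followed it in part at most. Fkbp5 (7.35 FPKM) and Sgk1 (13.8 FPKM) were also at their lowest MWA value in MWA replicate 4. Yet Fkbp5 was lowest of all in MWA+2DG replicate 3 (7.19 FPKM), and Per1 was highest in MWA replicate 3 (10.5 FPKM). The log2 fold change of Tsc22d3 was -0.12 (limma P = 0.764, exact permutation p = 0.889), with -0.88 in replicates 1 and 2 and 0.39 in replicates 3 to 5. The mean of 72 ribosomal protein genes moved with them: centred on the log2 scale it was lowest in MWA replicate 4 (-0.31) and MWA replicate 3 (-0.20) and highest in MWA replicate 5 (0.42) and MWA replicate 1 (0.23). The part of RNA composition in the shared pattern was not tested.

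**Figure D4:**
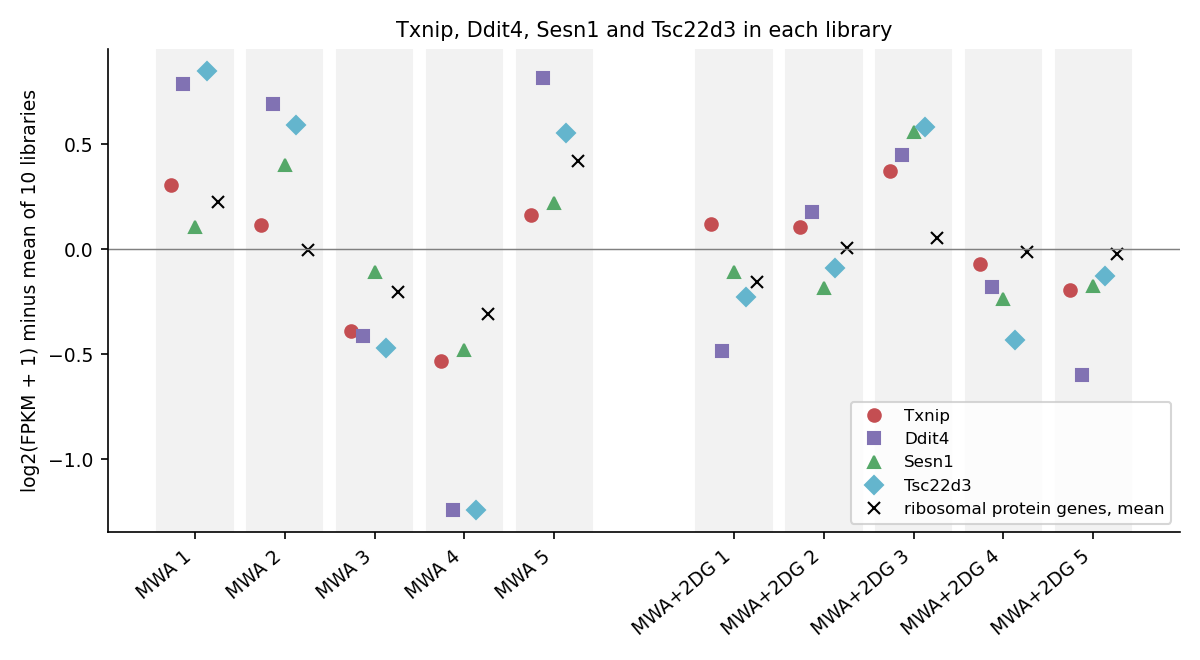
Log2(FPKM + 1) of Txnip, Ddit4, Sesn1 and Tsc22d3 minus each gene's mean over the 10 libraries (vertical axis), by library, with crosses for the centred mean of 72 ribosomal protein genes. MWA replicates 3 and 4 lie under 0 for all 4 genes and MWA replicates 1, 2 and 5 above it, while of the MWA+2DG libraries only replicate 3 is above 0 for all 4.

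Around the members, 92 further genes of the same pathways were listed by name, with earlier results of these data known. Of these, 91 had values and 86 were tested. By the rule of the study 0 of the 86 were called (2.82% of all genes), and 2 had an unadjusted limma P below 0.05 (4.25% of all genes). The log2 fold change was above 0 in 55 and below 0 in 31, with a median of 0.04 and a range of -0.28 to 0.23. Over all 13334 genes tested it was above 0 in 7011.

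The 2 genes past the P alone belong to the arrestin and MLX lists. Mnt, a MAX partner that represses MYC targets and also pairs with MLX, was at 8.94, 9.17, 10.3, 9.70 and 8.11 FPKM in MWA and at 10.5, 10.2, 9.80, 11.6 and 11.6 FPKM in MWA+2DG, a log2 fold change of 0.20 (SE 0.08, limma P = 0.0285, exact permutation p = 0.0238). Arrdc3, a further alpha-arrestin, was at 4.28, 4.56, 3.92, 4.41 and 4.12 FPKM in MWA and at 3.78, 3.76, 3.36, 4.27 and 2.89 FPKM in MWA+2DG, a log2 fold change of -0.20 (SE 0.09, limma P = 0.0445, exact permutation p = 0.0238). The estimates of Arrdc3 and Arrdc4 thus have opposite signs. Mnt was above the MWA mean in all 5 MWA+2DG libraries and Arrdc3 below it in 4. With 1 library left out, the limma P was not below 0.05 in 5 of 10 fits for Mnt and in 8 of 10 for Arrdc3. Both adjusted p-values over all genes were 0.995 (limma, Benjamini-Hochberg).

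In the MLX and MAX list 8 of 9 genes had a log2 fold change above 0, with Mlx itself at 0.01. Of the AMPK subunits, the scaffold genes Prkab1 (0.02) and Prkab2 (0.11) and the nucleotide-binding Prkag1 (-0.03) and Prkag2 (0.09) had values near 0, as had Stk11 (0.06), the gene of the upstream kinase LKB1. The smallest P among the AMPK subunits and upstream kinases was that of Strada, the LKB1 pseudokinase partner (limma P = 0.279, exact permutation p = 0.238), among AMPK substrates that of Fnip2 (limma P = 0.168, exact permutation p = 0.143), and in the mTORC1 and TSC list that of Akt1s1 (limma P = 0.249, exact permutation p = 0.183). Of the 22 GATOR, KICSTOR and Rag genes, 9 lay above 0 and 13 below, with Rraga the nearest to the threshold (-0.19, limma P = 0.154, exact permutation p = 0.198).

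Among transcription factors upstream of the members, Foxo3 had a log2 fold change of 0.16 (limma P = 0.0545, exact permutation p = 0.0397). Fkbp5, the glucocorticoid-induced gene with the smallest P of its list, had 0.23 (limma P = 0.171, exact permutation p = 0.222), and Bax, of the p53 targets, -0.13 (limma P = 0.323, exact permutation p = 0.373). The glucose transporter genes differed in their estimates. Slc2a3 was at 5.42, 5.03, 4.89, 4.64 and 3.19 FPKM in MWA and at 6.51, 6.11, 5.09, 6.02 and 4.25 FPKM in MWA+2DG (log2 fold change 0.23, SE 0.13, limma P = 0.111, exact permutation p = 0.143). Slc2a1 was at 14.4, 14.1, 13.9, 13.4 and 17.2 FPKM in MWA and at 13.3, 13.4, 15.7, 13.7 and 16.2 FPKM in MWA+2DG (log2 fold change -0.01, SE 0.09, limma P = 0.895, exact permutation p = 0.921, with a sign that turned when libraries were rescaled). MWA replicate 5 had the lowest Slc2a3 and the highest Slc2a1.

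Of the marker lists, summed per library and compared without adjustment, only that of macrophages and neutrophils had an exact permutation p below 0.05. Summed over its 8 markers, the libraries held 81.4 to 145 FPKM in MWA and 73.6 to 98.1 FPKM in MWA+2DG (exact permutation p = 0.0476). In that list 3 of 7 tested markers were called lower, against 1.87% of all genes tested. Over 6 plasma cell markers the sums were 320 to 819 FPKM and 244 to 504 FPKM (exact permutation p = 0.119), with 2 called lower. T cell markers summed to 372 to 588 FPKM in MWA and 400 to 573 FPKM in MWA+2DG (exact permutation p = 0.452). B cell markers summed to 1503 to 1688 FPKM and 1392 to 1628 FPKM (exact permutation p = 0.143), with 0 called in either list. For stroma and endothelium, liver, muscle, mammary epithelium and red blood cells the exact permutation p was 0.96, 0.603, 0.937, 0.595 and 0.373. Adipose markers summed to 9.82 to 23.8 FPKM in MWA and 10.7 to 107 FPKM in MWA+2DG (exact permutation p = 0.238). Their highest sums were in MWA+2DG replicate 5 (107 FPKM) and MWA+2DG replicate 2 (60.6 FPKM). Mlxip was highest in the former, at 34.5 FPKM, and at 25 FPKM in the latter. The part of these cells in the levels of the members was not tested.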

How the data were processed

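Poly(A) RNA of 10 TDLNs was sequenced, 5 per group. Per the labels' processing notes the tools were cutadapt 1.9, HISAT2 2.0.4, UMI-tools and StringTie 1.3.4d with build mm9, and the study's methods also name fastp and ballgown; the sources used here do not give the annotation. The authors deposited FPKM per gene, 1 table per library, so depth is unknown and no counting error can be given. Of 33643 identifiers 33541 matched a symbol; values of 57 shared symbols were summed.

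The 13334 genes whose mean reached 1 FPKM were tested on log2(FPKM + 1) with limma 3.58.1 (R 4.3.3, no covariate), called by the study's P below 0.05 and log2 fold change beyond 0.25, and adjusted by Benjamini-Hochberg over all genes. The log base, the pseudocount and the filter were chosen here. Single values were compared by two-sided exact permutation (smallest p 0.00794), correlations by 100000 permutations. On simulated data 174 of 200 genes with a log2 fold change of 1 and 7 unchanged genes passed an adjusted p of 0.05. The simulated noise was independent between genes, without the replicate sets or other shifts shared within a library. The change of 1 is also larger than any estimate of the members (at most 0.30), so smaller changes were not covered. The transcript length index compares genes of at least 4797 bases with genes of up to 1289 bases (longest GENCODE vM21 transcript).

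The members and lists were chosen with earlier results of these data known. Named are all members, in each list the gene of smallest P and any called gene, both glucose transporters and the 3 genes most like Txnip, Ddit4, Sesn1 and Sesn3. Alternatives were other pseudocounts, filters, scalings and tests, the replicate number as a block, the replicate set as a term, and each library left out.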

Additional observations from a re-analysis of the deposited data

Results flagged for a closer look

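In 44 groups of 5 libraries (22 genes), 5 held a library far from the rest by Dixon's 95% criterion, which chance alone meets in about 1 of 20 groups. Prkaa1 was at 11.3 FPKM in MWA+2DG replicate 1 (9.69 to 10.1 in the other MWA+2DG libraries). Sesn3 was at 6.76 FPKM in MWA replicate 5 (11.6 to 13.2 in the other MWA libraries), where the transcript length index was also lowest, and Slc2a1 was at 17.2 FPKM in the same library (13.4 to 14.4 in the others). MWA+2DG replicate 3 held the remaining flags: Sesn1 was at 40.5 FPKM (22.9 to 25.2 in the other MWA+2DG libraries) and Tsc22d3 at 57.8 FPKM (28.1 to 35.9). The part of RNA composition in these values was not tested.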

How the results depend on the processing

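The count of 0 members called by the rule of the study became 3 (Mlxip, Arrdc4 and Sesn2) when each library was rescaled to 1000000, and 1 (Arrdc4) with no fold change threshold; leaving out single libraries gave 0 to 1 (Sesn2 without MWA or MWA+2DG replicate 2, Mlxip without MWA or MWA+2DG replicate 3). For the network the count of 0 became 1 (Mnt) when rescaled and 2 with no threshold, and 0 to 1 with single libraries left out (Fkbp5 without MWA+2DG replicate 3, Slc2a3 without MWA+2DG replicate 5). Rescaling moved the median log2 fold change of all genes from 0.01 to 0.07 and the split of calls from 127 higher of 376 to 328 higher of 487. In all, the Wilcoxon test called 210 of 13334 genes, and a filter of 5 FPKM gave 230 calls among the 8052 genes it left. With the transcript length index as a term, added after the data were seen, signs turned for Ddit4 (0.02), Sesn1 (0.02), Sesn3 (-0.18), Bax (0.01), Slc2a1 (0.07) and Tsc22d3 (0.10). When rescaled they turned for Sesn1 (0.00292) and Slc2a1 (0.05), the latter also without immunoglobulin genes (0.01); the cause was not tested. With single libraries left out, signs turned within the ranges -0.21 to 0.03 (Sesn1), -0.12 to 0.11 (Sesn3), -0.05 to 0.05 (Slc2a1), -0.44 to 0.08 (Tsc22d3), -0.02 to 0.09 (Mlxipl) and -0.01 to 0.01 (Prkaa2). Same-numbered libraries correlated by 0.0334 to 0.501 in their deviations, over 0.1 for 4 of 5 numbers but not for replicate 4, and 3 of 10 libraries correlated best with their own number, so the numbers were not taken as pairs. With the replicate number as a block 449 genes were called in all, and of the members 0 and of the network 0. Under the block the limma P of Slc2a3 went from 0.111 to 0.0124 and that of Mnt from 0.0285 to 0.0583, both with a log2 fold change below 0.25. Depth is unknown, so what it limits cannot be given.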
